A study of Mus musculus with 2 samples.

Results

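Lung cells with transcripts of *Reg3g* or *Retnla* were selected from the spatial transcriptomes of 2 mouse models of small cell lung cancer (SCLC). A cell was included when it held at least 20 gene transcripts, at least 4 transcripts of *Reg3g* and *Retnla* together, at most 5 over the ciliated genes *Ccdc153*, *Tmem212*, *Fam183b*, *Dynlrb2* and *1110017D15Rik*, at most 3 over the alveolar type 2 (AT2) genes *Lamp3*, *Mlc1*, *Hc* and *Lrp2*, and at most 1 over the neuroendocrine (NE) genes *Chga*, *Chgb*, *Scg5*, *Snap25* and *Celf3*. The rule selected 5321 of 497663 cells, 1825 in the RPR2 section and 3496 in the CRPR2 section. Levels of these 16 genes therefore describe the choice of cells and are not findings.

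RPR2 mice carry floxed *Rb1*, *Trp53* and *Rbl2*, deleted by an adenovirus that expresses Cre from a promoter active in many cell types, given into the trachea at 10 weeks of age. CRPR2 mice carry the same alleles and the same Cre treatment, and in addition lack *Cracd* in the germline, so that every CRPR2 cell, normal or tumor, is *Cracd* KO, whereas loss of *Rb1*, *Trp53* and *Rbl2* depends on infection and was not read out in the cells described here. Lungs were taken 6 months after Cre, and 1 section of each genotype was measured by Xenium In Situ, which images transcripts of 479 chosen genes in the tissue. The sections held 154818 cells with 16313950 gene transcripts in RPR2 (median, 100 per cell) and 342845 cells with 37348565 in CRPR2 (median, 101 per cell). With 1 section per genotype no test was possible, and the exact 95% intervals in parentheses reflect counting alone and leave out differences between mice. The sections shared 8 cell identifiers, none with equal counts and none among the selected cells. Neither *Cracd* nor *Rbl2* was analysed here. The level of *Rb1* was 1530 CPM (transcripts of a gene scaled to 1000000 gene transcripts of the cells summed) in the cells led by *Reg3g* in RPR2 and 1881 in CRPR2, which does not check the genotype, since probes were not matched to the deleted exons.

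*Reg3g* encodes a secreted C-type lectin that binds bacterial cell walls and is made by epithelia at mucosal surfaces. *Retnla* encodes resistin-like alpha, a secreted protein made both by airway and alveolar epithelium and by macrophages, mainly in type 2 inflammation. Airway secretory cells cover a range from club cells, which release secretoglobins such as *Scgb3a2*, to goblet cells, which release gel-forming mucins (*Muc5b*, *Muc5ac*) packaged with the help of *Agr2* and trefoil factors under control of the transcription factor *Spdef*. In the GRCm38 annotation, *Reg3g* (ENSMUSG00000030017) lies on the minus strand at chr6:78466269-78468872 and *Retnla* (ENSMUSG00000061100) on the plus strand at chr16:48842551-48844461. The marker *Muc5b* (ENSMUSG00000066108) lies on the plus strand at chr7:141839070-141873084, and *Tff2* (ENSMUSG00000024028) on the minus strand at chr17:31141049-31144282.

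Cells with *Reg3g* and cells with *Retnla* were nearly separate. A cell was called *Reg3g*-led when it held more *Reg3g* than *Retnla* transcripts, and *Retnla*-led in the opposite case. In RPR2, 1015 selected cells were *Reg3g*-led (55.6%, 53.3 to 57.9), 805 were *Retnla*-led and 5 were tied. In CRPR2, 965 were *Reg3g*-led (27.6%, 26.1 to 29.1), 2502 were *Retnla*-led and 29 were tied. *Reg3g*-led cells held a median of 6 *Reg3g* transcripts in each section (at most 38 in RPR2 and 40 in CRPR2), and *Retnla* was at 0 in 90.3% of them in RPR2 and 80.0% in CRPR2. *Retnla*-led cells held a median of 7 *Retnla* transcripts in RPR2 (at most 53) and 6 in CRPR2 (at most 43), and *Reg3g* was at 0 in 94.5% and 94.9% of them. At least 2 transcripts of each gene were present in 38 cells in RPR2 (2.08%) and 142 cells in CRPR2 (4.06%). Since a cell with many transcripts of either gene passes the rule alone, this separation is in part set by the rule.

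**Figure D1:**
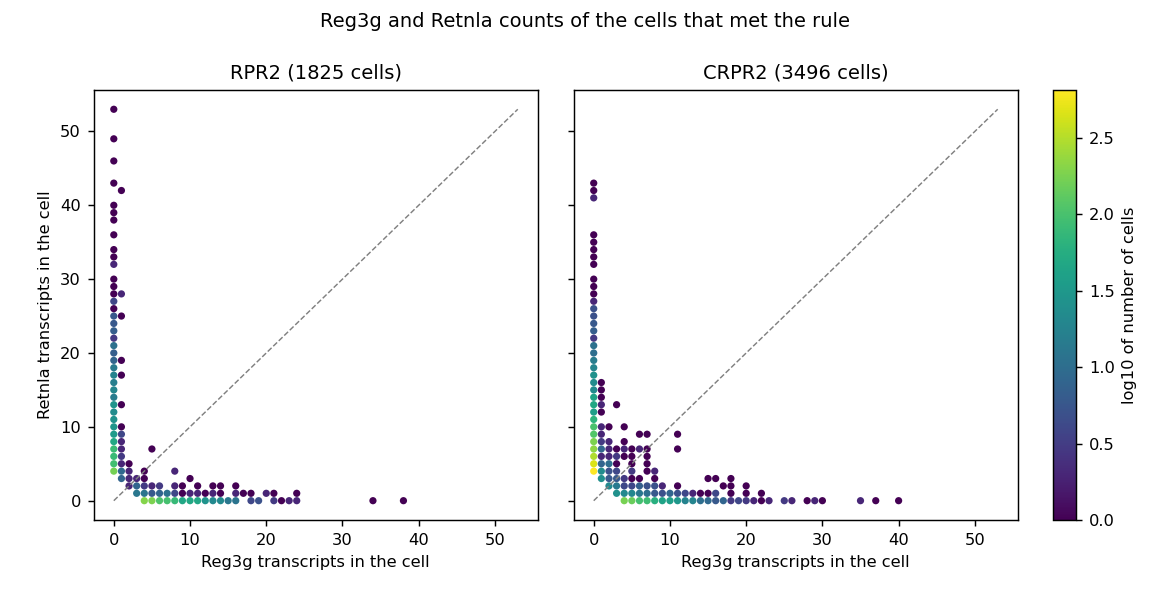
Number of *Reg3g* transcripts (x axis) and *Retnla* transcripts (y axis) in each selected cell of the RPR2 (left) and CRPR2 (right) sections, with color giving log10 of the number of cells at each pair of counts and the dashed line marking equal counts. Most cells lie along 1 axis, and 38 cells in RPR2 and 142 in CRPR2 held at least 2 transcripts of each gene.

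The limits on ciliated, AT2 and NE transcripts removed about as many cells as they kept. Of 3642 cells in RPR2 and 7430 in CRPR2 with at least 4 transcripts of both genes together, 50.1% and 47.1% were kept. In RPR2, 1525 cells were over the ciliated limit, 38 over the AT2 limit and 288 over the NE limit. In CRPR2, these were 2297, 742 and 1130 cells. Cells over a limit were mainly *Reg3g*-led in RPR2 (1661 against 141 *Retnla*-led) and mainly *Retnla*-led in CRPR2 (1328 against 2561). The selected cells thus held 25.4% of all *Reg3g* transcripts in RPR2 and 28.9% in CRPR2, while 41.0% and 46.2% lay in cells over a limit. They held 47.1% of all *Retnla* transcripts in RPR2 and 25.5% in CRPR2, while 46.5% and 51.4% lay in cells with 1 to 3 transcripts of both genes together.

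Just outside the threshold of 4, *Reg3g*-led cells with a sum of 3 had 18716 CPM of *Tff2* in RPR2 (355 cells) and 18875 CPM in CRPR2 (315 cells), against 26697 CPM (209 cells) and 21990 CPM (200 cells) at a sum of 4. *Retnla*-led cells with a sum of 3 had 9036 CPM of the macrophage gene *F13a1* in RPR2 (325 cells) and 2963 CPM in CRPR2 (1184 cells), against 15352 CPM (175 cells) and 4605 CPM (674 cells) at a sum of 4. Not every gene was lower outside: *Muc5b* in RPR2 *Reg3g*-led cells had 20228 CPM at a sum of 3 and 19841 CPM at 4, and *Scgb3a1* in CRPR2 *Retnla*-led cells 14734 and 13952 CPM.

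*Reg3g*-led cells carried the markers of airway secretory cells in both sections. *Tff2*, a trefoil factor of mucosal surfaces, had 31458 (30474 to 32466) and 29601 CPM (28682 to 30543) in RPR2 and CRPR2, where all unselected cells had 917 and 441 CPM. *Muc5b*, the main gel-forming airway mucin, had 22318 CPM (21490 to 23169) and 16788 CPM (16097 to 17500), against 1388 and 1296 CPM in unselected cells. The secretoglobin *Scgb3a1* had 56527 and 55206 CPM, against 2207 and 4388 CPM. The secretoglobin *Scgb3a2*, found in club cells, had 97312 and 67030 CPM, against 15258 and 14564 CPM. Each of these genes stood at least 4 times above the unselected cells of its own section.

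*Agr2*, a disulfide isomerase needed for mucin folding, had 8367 CPM in RPR2 *Reg3g*-led cells and 19145 CPM in CRPR2 *Reg3g*-led cells, against 380 and 256 CPM in unselected cells. *Spdef* had 1831 and 2463 CPM, against 150 and 221 CPM. *Muc5ac*, the inducible gel-forming mucin, had 2629 and 3234 CPM, against 157 and 277 CPM. *Gp2*, a membrane protein that binds bacterial fimbriae, had 10972 and 20739 CPM in *Reg3g*-led cells, against 420 and 876 CPM in unselected cells, and *Pglyrp1*, which binds bacterial peptidoglycan, had 11899.5 and 15979 CPM, against 1461 and 958 CPM.

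Over all panel genes with at least 200 CPM in *Reg3g*-led or in unselected cells of each section (genes of the rule not counted), 12.5% of 289 were at least 2-fold higher in *Reg3g*-led cells in both sections and 39.1% at least 2-fold lower. Of 14 mucin genes on the panel 5 were counted, and 3 were higher (*Muc4*, *Muc5ac* and *Muc5b*). All 4 counted genes of the trefoil and goblet list were higher (*Agr2*, *Spdef*, *Tff2* and *Wfdc2*), as were 2 of 3 counted genes of the club list (*Scgb3a1* and *Scgb3a2*) and 3 of 9 general epithelial genes (*Cldn2*, *Krt19* and *Prom1*). In RPR2, *Spdef* and *Muc5ac* passed the CPM minimum only through *Reg3g*-led cells. Of the list of ionocyte, tuft and urothelial genes, 4 of 5 counted genes were higher (*Atp6v1b1*, *Gabrp*, *Serpinb11* and *Upk1b*). The basal keratin *Krt5* was higher as well. It was seen in only 0.278% and 0.354% of unselected cells in RPR2 and CRPR2. *Krt5* thus passed the CPM minimum only through *Reg3g*-led cells and could only be called higher. The intestinal mucin *Muc2* had 16.3 and 45.3 CPM, and *Tff3* was at 0 in both sections, which bounds it at 24.4 and 22.7 CPM in RPR2 and CRPR2 by a floor of 3 counts. Lower in *Reg3g*-led cells were all 7 endothelial genes, all 6 counted NE genes outside the rule, 6 of 8 proliferation genes (*Mki67* among them, with 594 and 869 CPM against 1427 and 8237 CPM) and 4 of 7 macrophage genes, but only 2 of 11 fibroblast and mural genes and 1 of 3 counted neutrophil genes. The epithelial gene *Prom2* was lower too. As these cells were chosen by 16 of the genes measured in them, this comparison with the remaining cells is a description.

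*Foxj1*, the transcription factor of motile cilia, had 8269 and 5500 CPM in RPR2 and CRPR2 *Reg3g*-led cells, above unselected cells (2795 and 1050 CPM) and below cells gated as ciliated (21065 and 18936 CPM), although the rule caps the other cilia genes. Cells gated as ciliated in turn had 9211 and 14902 CPM of *Reg3g* and 5897 and 7988 CPM of *Tff2*.

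The share of *Reg3g*-led cells with a secretory transcript remained high at a fixed depth. After each cell was thinned to 50 transcripts (24 RPR2 and 12 CRPR2 cells were too shallow), *Tff2* was seen in 69.9% (67.0 to 72.8) of *Reg3g*-led cells in RPR2 and 66.1% (63.0 to 69.1) in CRPR2. Cells gated as endothelial, which should lack it, showed it in 0.0577% and 0.179%. Before thinning, *Tff2* was seen in 86.2% and 84.6% of *Reg3g*-led cells and in 0.146% and 0.359% of endothelial cells. *Muc5b* was seen after thinning in 64.6% (61.5 to 67.6) and 55.7% (52.5 to 58.9) of *Reg3g*-led cells, against 0.245% and 0.943% of endothelial cells, and before thinning in 86.2% and 82.4%. Median depth was 116 and 130 transcripts in *Reg3g*-led cells and 108 and 111 in endothelial cells.

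Cells with more *Reg3g* held more *Tff2*, also when *Reg3g* was left out of the total. In RPR2, *Tff2* went from 29465 CPM in cells with 3 to 7 *Reg3g* transcripts (649 cells) over 37512 CPM at 8 to 15 (326 cells) to 50312 CPM at 16 or more up to 24 (38 cells). In CRPR2, it had 26507 CPM at 3 to 7 (637 cells), 36487 CPM at 8 to 15 (274 cells) and 45018 CPM at 16 to 30 (50 cells). *Gp2* went from 8756 over 15073 to 21471 CPM in RPR2 and from 18894 over 24621 to 34476 CPM in CRPR2. *Foxj1* and *Hp* (haptoglobin) did not follow this order, with 20857, 18695 and 15222 CPM of *Hp* in RPR2 and 14007, 14950 and 11597 CPM in CRPR2. Cells rich in *Reg3g* also had more transcripts of other genes, with medians of 99, 122 and 172 in RPR2 and 114, 132 and 178 in CRPR2. The bins above 31 transcripts held 2 and 4 cells and are not described.

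Most *Retnla*-led cells held mainly macrophage or mainly general epithelial transcripts. Only the mainly epithelial cells had the club genes *Hp*, *Scgb3a1* and *Scgb3a2* at least 2-fold above unselected cells in both sections. Even in these cells, *Tff2* and *Agr2* were not 2-fold above unselected cells in RPR2. Each *Retnla*-led cell was sorted by whether it held more transcripts of 11 macrophage genes or of 9 general epithelial genes, a division made after the levels had been seen. In RPR2, 608 of 805 *Retnla*-led cells were macrophage-led (75.5%, 72.4 to 78.5), 160 were epithelial-led (19.9%, 17.2 to 22.8) and 37 were neither. In CRPR2, 543 of 2502 were macrophage-led (21.7%, 20.1 to 23.4), 1887 were epithelial-led (75.4%, 73.7 to 77.1) and 72 were neither. In RPR2, most *Retnla*-led cells thus held more macrophage than epithelial transcripts. The epithelial list included *Egfr*, which had 3210 and 1188 CPM in RPR2 and CRPR2 epithelial-led cells. In macrophage-led cells, *Egfr* had 3295 and 2197 CPM, and *Cdh1* 204 and 698 CPM. At least 1 *Cdh1* transcript was seen in 65.6% of epithelial-led cells in RPR2 and 74.8% in CRPR2. How many cells were epithelial-led through *Egfr* alone was not tested. The epithelial-led shares in RPR2 and CRPR2 were 3.92% and 64.9% among cells with at least 8 transcripts of *Reg3g* and *Retnla*, 10.4% and 54.1% with limits of 1, 1 and 0 on ciliated, AT2 and NE transcripts, and 19.0% and 74.9% with a margin of at least 2 times between the lists.

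**Figure D2:**
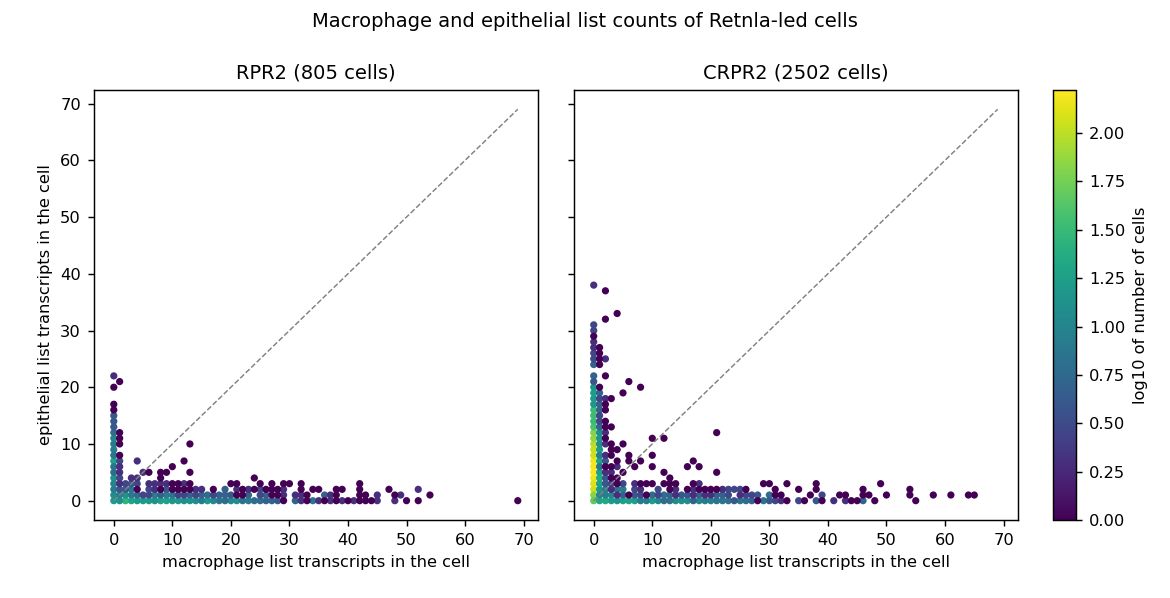
Transcripts of 11 macrophage genes (x axis) and of 9 general epithelial genes (y axis) in each *Retnla*-led cell of the RPR2 (left) and CRPR2 (right) sections, with color giving log10 of the number of cells and the dashed line marking equal counts. Cells along the x axis are macrophage-led (608 in RPR2 and 543 in CRPR2), and cells along the y axis are epithelial-led (160 and 1887).

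Macrophage-led *Retnla*-led cells had macrophage genes, with little of the alveolar macrophage gene *Marco*. *F13a1*, a coagulation factor subunit of resident macrophages, had 39640 (38258 to 41059) and 37317 CPM (35968 to 38703) in RPR2 and CRPR2, against 678 and 445 CPM in unselected cells. The mannose receptor *Mrc1* had 22808 and 19091 CPM, against 1012 and 1038 CPM. The folate receptor *Folr2* had 14226 and 15046 CPM, against 167 and 137 CPM. *Marco*, a scavenger receptor of alveolar macrophages, had 63.9 and 25.9 CPM in RPR2 and CRPR2, below the 187 and 65.9 CPM of unselected cells. The pan-leukocyte gene *Ptprc* had 12617 and 15550 CPM, and *Tff2* only 76.6 and 51.7 CPM. The levels of *F13a1*, *Mrc1*, *Folr2* and *Ptprc* differed by less than 2-fold between the sections. Genes of the macrophage list served to divide the cells, so their levels describe the division.

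Compared with unselected cells, 21.8% of 298 genes were at least 2-fold higher in macrophage-led cells in both sections and 39.9% at least 2-fold lower. Among the higher genes were *Ptprc*, 2 of 3 counted neutrophil-list genes (*Csf3r* and *Mmp9*) and 4 of 11 fibroblast and mural genes. The extracellular matrix gene *Dpt* had 14558 and 11271 CPM in RPR2 and CRPR2 macrophage-led cells, against 3083 and 1198 CPM in unselected cells, and *Col1a1* had 14827 and 15446 CPM against 6165 and 5153 CPM. The 11 fibroblast and mural genes summed to 57289 and 53538 CPM, with *Acta2* the highest (16538 and 15756 CPM) and none at 0. Their part in the levels of these cells was not tested. In the lower direction were all 3 counted club genes, all 4 counted mucins, 7 of 8 counted epithelial genes and the fibroblast-list gene *Itga8* (983 and 427 CPM, against 6374 and 1275 CPM). Genes of the epithelial list also served to divide the cells, so their count describes the division.

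Among macrophage-led cells, *F13a1* was higher in those with more *Retnla*. The gene, with *Retnla* left out of the total, went from 30151 CPM at 3 to 7 *Retnla* transcripts (270 cells) over 45000 CPM at 8 to 15 (216 cells) to 62018 CPM at 16 to 30 (109 cells) in RPR2. In CRPR2, it went from 29006 CPM (273 cells) over 46201 CPM (178 cells) to 56433 CPM (83 cells). *Folr2* went from 9181 over 17463 to 24298 CPM in RPR2, but in CRPR2 from 11807 over 21724 back to 18176 CPM. *Scgb3a2* went the other way in CRPR2 (6153, 3430 and 556 CPM) and kept near 1 level in RPR2 (2304, 2022 and 2684 CPM). Cells rich in *Retnla* also had more transcripts of other genes, with medians of 97.5, 108.5 and 132 in RPR2 and 116, 123.5 and 140 in CRPR2. *F13a1* and *Folr2* were also among the genes that divided the cells. Bins of 32 or more held 13 and 9 cells.

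**Figure D3:**
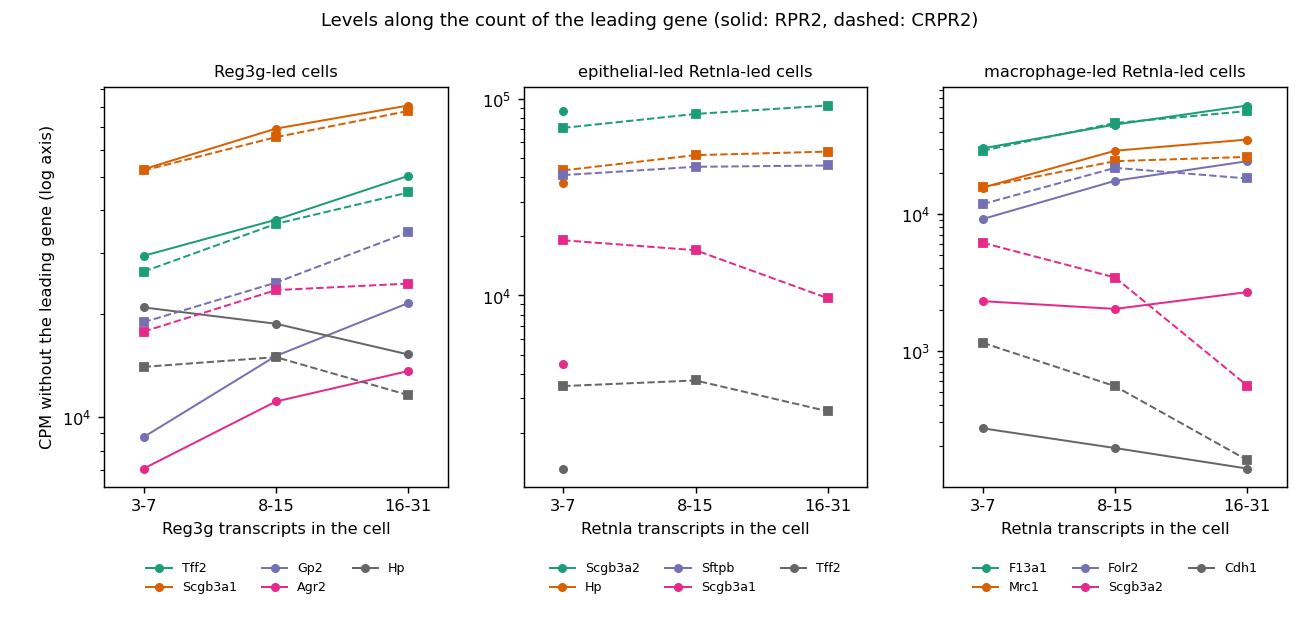
Level of 5 genes (y axis, CPM without the leading gene, log axis) by the number of transcripts of the leading gene per cell (x axis) in *Reg3g*-led (left), epithelial-led *Retnla*-led (middle) and macrophage-led *Retnla*-led cells (right), solid for RPR2 and dashed for CRPR2, for bins of at least 20 cells. *Tff2* went from 29465 to 50312 CPM in RPR2 *Reg3g*-led cells, and *F13a1* from 30151 to 62018 CPM in RPR2 macrophage-led cells.

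In epithelial-led *Retnla*-led cells, *Scgb3a2* had 85923 (82129 to 89847) and 71218 CPM (70164 to 72285) in RPR2 and CRPR2, near its level in *Reg3g*-led cells. *Hp* had 37277 CPM (34792 to 39891) and 43435 CPM (42612 to 44269), and *Sftpb*, a surfactant protein made by AT2 and club cells, had 42538 and 39990 CPM. *Tff2* had 1248 CPM (830 to 1804) and 3314 CPM (3089 to 3550), and *Muc5b* 3790 CPM (3027 to 4686) and 9765 CPM (9377 to 10165). The RPR2 values rest on 160 cells with 22427 transcripts, so that 5 transcripts make 223 CPM.

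Compared with unselected cells, 9.54% of 283 genes were at least 2-fold higher in epithelial-led cells in both sections and 31.4% at least 2-fold lower. All 3 counted club genes (*Hp*, *Scgb3a1* and *Scgb3a2*) were higher, as were 3 of 5 counted mucins (*Muc4*, *Muc5ac* and *Muc5b*), *Spdef* and *Wfdc2*, the surfactant genes *Sftpb* and *Sftpd*, and the Notch target *Hes1* (8115 and 6001 CPM, against 3002 and 2349 CPM). In RPR2, *Spdef* and *Muc5ac* passed the CPM minimum only through epithelial-led cells. *Tff2* and *Agr2* were past 2-fold above unselected cells in CRPR2 only. In RPR2, *Tff2* had 1248 CPM against 917 CPM, and *Agr2* 223 CPM (72.4 to 520.3) against 380 CPM. All 6 counted NE genes outside the rule were lower. Along *Retnla*, *Scgb3a2* in CRPR2 went from 70965 CPM at 3 to 7 transcripts (1390 cells) over 83568 CPM at 8 to 15 (444 cells) to 92220 CPM at 16 to 25 (53 cells), with *Retnla* left out of the total, whereas *Tff2* had 3466, 3702 and 2583 CPM. Medians of other transcripts also rose along these bins, from 110.5 over 122 to 166.

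**Figure D4:**
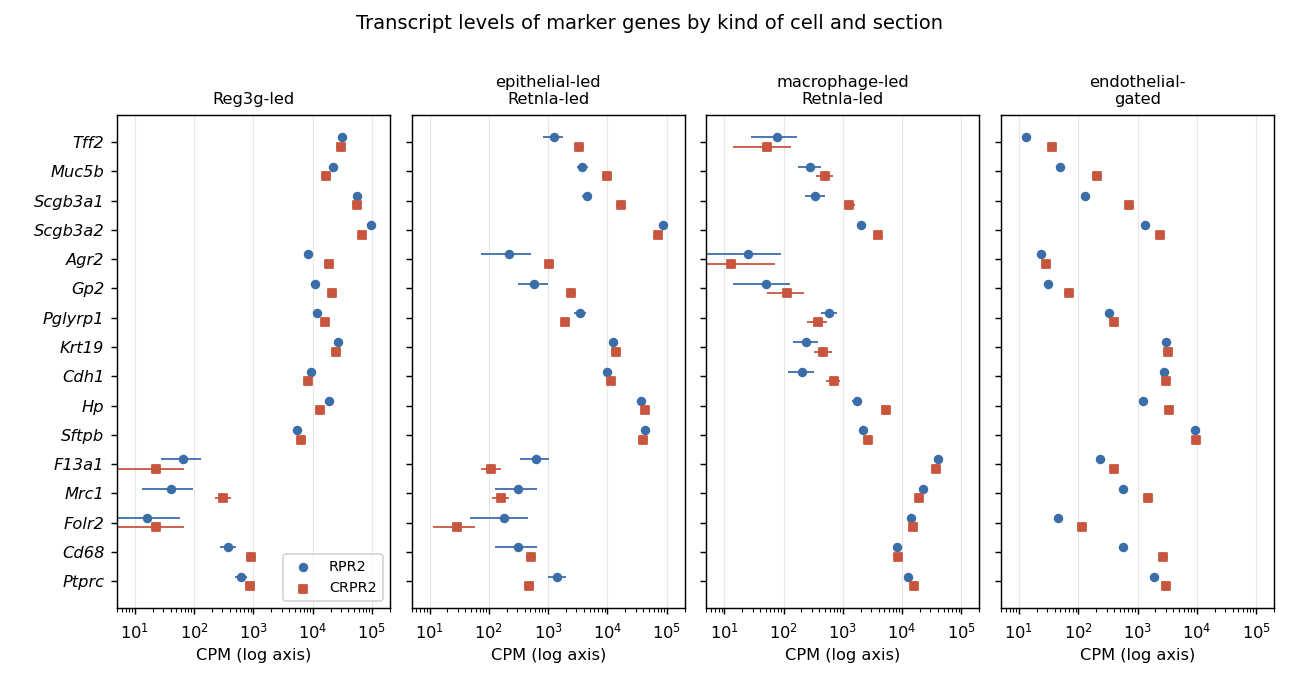
Level of 16 marker genes (x axis, CPM, log axis) in *Reg3g*-led, epithelial-led *Retnla*-led, macrophage-led *Retnla*-led and endothelial-gated cells, with circles for RPR2, squares for CRPR2 and lines for exact 95% Poisson intervals (drawn from 5 CPM upward and not for endothelial cells). Among the cells drawn, *Tff2* is highest in *Reg3g*-led cells (31458 CPM and 29601 CPM), *Scgb3a2* in *Reg3g*-led and epithelial-led cells (67030 CPM or more), and *F13a1* in macrophage-led cells (39640 CPM and 37317 CPM).

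Set directly against *Retnla*-led cells, *Reg3g*-led cells were at least 2-fold higher in both sections for 10.3% of 273 genes and at least 2-fold lower for 26.4%. *Krt5*, the keratin of basal cells, had the highest ratio by the smaller of both sections, with log2 ratios of 5.22 and 6.97. It passed the CPM minimum only through *Reg3g*-led cells. In RPR2 it had 1 transcript in epithelial-led and 1 in macrophage-led cells, so that this rank rests on few transcripts. The goblet gene *Agr2* was higher by a log2 ratio of 6.98 (5.93 to 8.29) in RPR2 and 4.66 (4.47 to 4.86) in CRPR2, *Tff2* by 6.61 and 3.57, and *Gp2* by 6.09 and 3.47. In RPR2, *Agr2* and *Gp2* also passed the CPM minimum only through *Reg3g*-led cells, so there they could only be called higher. Other genes named here may also have passed on 1 side alone. *Msln* (mesothelin) was higher by 5.16 and 4.15, with *Upk1b*, *Serpinb11*, *Oit1*, *Trim29* and *Pglyrp1* completing the 10 highest. All 9 counted macrophage genes were lower in *Reg3g*-led cells, *F13a1* by a log2 ratio of −8.84 (−10.05 to −7.86) and −8.62 (−10.89 to −7.07). *F13a1* and *Folr2* passed the CPM minimum only through *Retnla*-led cells, so they could only be called lower. *Folr2*, *Cd209a*, *Car3*, *Mmp9*, *Ccl12*, *Pck1*, *Retn*, *Ifitm6* and *Ccl9* were the other 9 of the 10 lowest. Without cells that held at least 2 immune transcripts, 40 genes were 2-fold apart in place of 100, of which 32 were among the 100.

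*Reg3g*-led cells were also set against the *Retnla*-led cells that were epithelial-led. In this comparison, which was added after the levels had been seen, 7.39% of 230 genes were at least 2-fold higher in epithelial-led *Retnla*-led cells in both sections and 8.7% at least 2-fold lower. *Agr2* differed by −5.23 (−6.86 to −4.00) on the log2 scale in RPR2 and −4.24 (−4.43 to −4.05) in CRPR2, *Tff2* by −4.66 and −3.16, *Scgb3a1* by −3.64 and −1.68, and *Spdef* by −1.78 and −1.36. None of the 6 counted mucins was 2-fold apart in both sections: *Muc5b* differed by −2.56 (−2.89 to −2.25) in RPR2 and by −0.78 (−0.87 to −0.70) in CRPR2. Higher in epithelial-led cells were *Sftpb* (2.98 and 2.65), *Hp* (1.01 and 1.71) and the alveolar type 1 gene *Ager* (3.13 and 3.18). *Scgb3a2* differed by −0.18 (−0.25 to −0.11) and 0.09 (0.05 to 0.12).

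The question that the sections pose is how loss of *Cracd* bears on these cells. The rule was met by 1.19% of cells in RPR2 (1.14 to 1.25) and by 1.03% in CRPR2 (0.993 to 1.06), so that the log2 ratio of CRPR2 over RPR2 was −0.22 (−0.30 to −0.14). The small difference was made of opposite parts. *Reg3g*-led cells were 0.664% of RPR2 and 0.283% of CRPR2 cells (log2 ratio −1.23, −1.36 to −1.10), and macrophage-led *Retnla*-led cells 0.398% and 0.159% (−1.32, −1.49 to −1.15). Epithelial-led *Retnla*-led cells were 0.105% and 0.554% (2.40, 2.17 to 2.65).

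These shares depend on what else a section held, since cells gated as NE were 10.7% of RPR2 and 59.6% of CRPR2 cells. Over cells outside the NE gate, a denominator added after the values had been seen, *Reg3g*-led cells made up 0.744% (0.699 to 0.791) of RPR2 and 0.701% (0.658 to 0.747) of CRPR2, with a log2 ratio of −0.08 (−0.21 to 0.04). Macrophage-led cells were 0.445% and 0.395% (−0.17, −0.34 to −0.00492), and epithelial-led *Retnla*-led cells 0.117% and 1.37% (3.55, 3.32 to 3.79). The share of all selected cells then turned direction, to 1.34% and 2.54% (0.93, 0.84 to 1.01). Ciliated-gated cells were 8.54% of RPR2 and 1.62% of CRPR2 cells, so per 100 ciliated cells there were 7.77 *Reg3g*-led cells in RPR2 and 17.5 in CRPR2. Fewer cells of a kind and a section with less airway in it cannot be told apart here.

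Within *Reg3g*-led cells, CRPR2 had more transcripts of the membrane mucin *Muc16* and of the basal keratin *Krt5*. Of 261 genes with at least 200 CPM in at least 1 section, 17.2% were at least 2-fold higher in CRPR2 and 6.51% at least 2-fold lower, around a median log2 ratio of 0.19. *Muc16* had 114 CPM in RPR2 (14 transcripts) and 5175 CPM in CRPR2 (685 transcripts), a log2 ratio of 5.51 (4.75 to 6.38). *Krt5* had 708 and 5334 CPM (2.91, 2.59 to 3.25), and *Trim29*, expressed in stratified and basal epithelium, 212 and 1511 CPM (2.84, 2.24 to 3.49). *Cldn2*, a claudin of leaky tight junctions, had 317 and 2108 CPM (2.73, 2.24 to 3.25). The serpin *Serpinb5* had 65.1 and 672 CPM (3.37, 2.33 to 4.62), and like *Muc16* it was counted only through CRPR2.

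Among the secretory genes, *Agr2* had a log2 ratio of 1.19 (1.09 to 1.30) and was the only counted gene of 4 of the trefoil and goblet list past 2-fold, where 17.2% of all 261 genes were higher. *Gp2* had 0.92 (0.82 to 1.01), *Tff2* −0.09 (−0.15 to −0.02), *Muc5b* −0.41 (−0.49 to −0.33) and *Muc5ac* 0.30 (0.09 to 0.51). Of 6 counted mucins, *Muc16* alone was past 2-fold, and it passed the CPM minimum only through CRPR2. None of the 3 counted club genes was, with *Scgb3a1* at −0.03 (−0.08 to 0.01), *Scgb3a2* at −0.54 (−0.58 to −0.50) and *Hp* at −0.48 (−0.57 to −0.39). Among the genes lower in CRPR2 were, at fewer than 40 transcripts in RPR2 each, *Mmp9*, *Gli1*, *Sfta2*, *Serpina10*, *Csf3r* and *Ly6g6c*. *A330076H08Rik*, a long noncoding RNA, had 822 and 189 CPM (−2.12, −2.82 to −1.48). Like the genes named just before, it passed the CPM minimum only through RPR2.

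**Figure D5:**
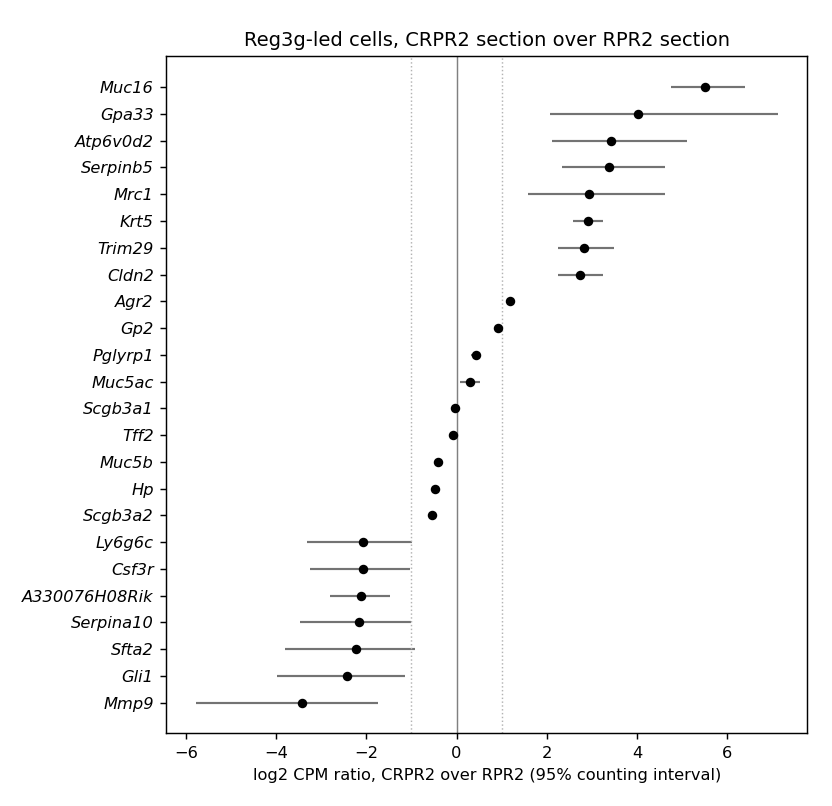
Log2 ratio of CPM in CRPR2 over RPR2 (x axis) for named genes in *Reg3g*-led cells, with points for the ratio, lines for exact conditional 95% intervals of the counts, a solid line at 0 and dotted lines at 2-fold. *Muc16* (5.51) and *Krt5* (2.91) lie far to the right, while *Tff2* (−0.09), *Muc5b* (−0.41) and *Scgb3a1* (−0.03) lie within 2-fold.

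Transcripts of *Krt5* lay in a larger part of the *Reg3g*-led cells of CRPR2. At least 1 was found in 54 of 1015 cells in RPR2 (5.32%, 4.02 to 6.89) and 287 of 965 in CRPR2 (29.7%, 26.9 to 32.7). Median depth was 133 transcripts in RPR2 and 149 in CRPR2 cells with *Krt5*, against 115 and 124 in those without. At 50 transcripts per cell, the shares were 2.93% (1.97 to 4.18) and 16.1% (13.8 to 18.5), against 0.0577% and 0.0740% in endothelial cells. Cells with *Krt5* also held more of *Aqp3*, a water channel (7665 and 9968 CPM in RPR2 and CRPR2, against 554 and 1762 CPM in cells without *Krt5*), *Col17a1*, a hemidesmosome collagen (3011 and 3894 CPM, against 86.5 and 492 CPM) and *Krt13*, a suprabasal keratin (2053 and 3649 CPM, against 164 and 709 CPM). These 3 genes were taken up after their values had been seen. *Muc16* had 4472 CPM in CRPR2 cells that held *Krt5* and 5537 CPM in those that did not, and 274 and 104 CPM in RPR2. Without cells that held *Krt5*, 59 genes were 2-fold apart between the sections in place of 62, and 54 were shared.

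Cells outside the selection moved in the same direction for some of these genes. In ciliated-gated cells, *Muc16* had 34.3 and 1129 CPM in RPR2 and CRPR2, and *Krt5* 125 and 1067 CPM. In AT2-gated cells, *Muc16* had 103 and 22.9 CPM, and *Cldn2* 83.8 and 871 CPM. Levels of genes of other lineages in *Reg3g*-led cells also differed between the sections. The 11 macrophage genes summed to 1164 and 2395 CPM in RPR2 and CRPR2 (*Cd68* the highest, 374 and 899 CPM, with none at 0), and the 7 endothelial genes to 2279 and 4442 CPM (*Eng* the highest, 594 and 869 CPM, with none at 0). Of these, 3 of 4 counted macrophage genes and 4 of 7 endothelial genes were at least 2-fold higher in CRPR2, against 17.2% of all 261 genes. *Cd86* (122 and 317 CPM) and *Mrc1* (40.7 and 309.8 CPM) passed the CPM minimum only through CRPR2, so that they could be counted only as higher. The 4 neutrophil genes summed to 1970 and 1141 CPM, with 2 of 3 counted genes at least 2-fold lower, against 6.51% of all genes. Both (*Csf3r* and *Mmp9*) passed the minimum only through RPR2. The median log2 ratio was −0.03 over the 11 fibroblast and mural genes and −0.04 over the 4 counted NE genes. Their part in the other differences was not tested.

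In *Retnla*-led cells as 1 group, 32.2% of 295 genes were at least 2-fold higher in CRPR2 and 30.5% at least 2-fold lower, while the mix of macrophage-led and epithelial-led cells differed as given above. The 6 mucins that passed the CPM minimum, all 4 counted trefoil and goblet genes and all 3 counted club genes were higher (*Scgb3a1*, 1244 and 13160 CPM; *Agr2*, 66.5 and 756 CPM), while 9 of 10 counted macrophage genes were lower (*F13a1*, 29858 and 8887 CPM). Of these secretory genes, *Agr2*, *Spdef* and *Muc2* passed the minimum only through CRPR2. Outside these lists, *Gp2* had 161 and 1877 CPM. *Muc16*, below that minimum, had 114 and 15.2 CPM. *Upk3a*, a uroplakin, had 57.0 and 2527 CPM (log2 ratio 5.47, 4.34 to 6.92). Both *Gp2* and *Upk3a* were counted only through CRPR2. *Upk3a* was also higher in unselected CRPR2 cells (223 and 2985 CPM), and in AT2-gated cells (186 and 2842 CPM).

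Macrophage-led cells differed between the sections in the fewest genes of the 4 groups compared, with 10.6% of 246 genes at least 2-fold higher in CRPR2 and 9.35% at least 2-fold lower. *Retn* (resistin) had 664 and 3102 CPM in RPR2 and CRPR2 (log2 ratio 2.22, 1.79 to 2.69). *Prg2*, the eosinophil major basic protein gene, had 3448 and 814 CPM (−2.08, −2.50 to −1.68) and *Igfbp6* 9987 and 3361 CPM (−1.57, −1.78 to −1.37). *Scgb3a1*, which these cells hold at a low level, had 345 and 1293 CPM, beside 128 and 708 CPM in endothelial cells.

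Within epithelial-led *Retnla*-led cells, 18.9% of 259 genes were at least 2-fold higher in CRPR2 and 23.6% at least 2-fold lower. Of the secretory lists, 1 of 3 counted club genes, 2 of 4 trefoil and goblet genes and 3 of 7 mucins were higher, and the mucin *Muc16* was lower (6 transcripts in RPR2 and 2 in CRPR2, counted only through RPR2). *Muc2*, 1 of the 3, was counted only through CRPR2, had 3 transcripts in RPR2, and its interval reached 0 (1.56, −0.03 to 3.86). The higher genes included *Scgb3a1* at 4548 and 17244 CPM in RPR2 and CRPR2 (log2 ratio 1.92, 1.64 to 2.22), *Muc5b* at 1.37 (1.05 to 1.69), and *Tff2* at 1.41 (0.87 to 2.01). Outside these lists, *Gp2* had 2.09 (1.31 to 3.01). After thinning, *Muc5b* was seen in 12.6% (7.86 to 18.8) of these cells in RPR2 and 33.7% (31.6 to 36.0) in CRPR2, and before thinning, at median depths of 135 and 121 transcripts, in 24.4% and 56.2%. *Scgb3a2* (−0.27), *Wfdc2* (−0.62) and *Pglyrp1* (−0.85) were lower in CRPR2 by less than 2-fold. *Scgb3a1* was higher in CRPR2 also in macrophage-led cells (log2 ratio 1.91, 1.28 to 2.58), in endothelial cells and in unselected cells. The part of neighboring cells in its level here was not tested.

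Where 18.9% of all 259 genes were at least 2-fold higher in CRPR2, the 8 proliferation genes were so in these epithelial-led cells. So were the 4 NE genes outside the rule that passed the CPM minimum. *Cenpf* (4 transcripts in RPR2), *E2f1* (3), *Insm1* (2) and *Scg3* (1) passed it only through CRPR2, and the NE genes *Gria2* (log2 ratio −0.71) and *Ly6h* (0.56) did not pass. With at least 8 transcripts of *Reg3g* and *Retnla*, *E2f1* turned to −0.52 and *Scg3* to −3.43. In RPR2, 13 epithelial-led cells held 8 to 14 *Retnla* transcripts, so that these 2 values rest on very few transcripts. *Mki67* had 446 CPM in RPR2 (10 transcripts) and 3441 CPM in CRPR2 (840 transcripts), and was seen after thinning in 2.52% (0.690 to 6.32) and 10.5% (9.10 to 11.9) of cells, and before thinning in 4.38% and 19.9%. Endothelial cells showed it in 0.722% and 5.91%, and their *Mki67* had 198 and 1770 CPM. *Mki67* was thus higher in CRPR2 also in endothelial cells, and in all unselected cells (1427 and 8237 CPM), and the part of neighboring cells in the values of the epithelial-led cells was not tested. Lower in CRPR2 were 23.6% of all 259 genes. They included all 3 counted lymphocyte genes (*Cd3d*, *Cd8a* and *Satb1*, with at most 10 transcripts each in RPR2) and 1 of 2 counted neutrophil genes. Also among them were 5 of 11 fibroblast and mural genes, such as *Col1a1* (9319 and 3297 CPM) and *Dpt* (5039 and 684 CPM). *Cd3d*, *Cd8a*, the neutrophil gene *Mmp9* (8 transcripts in RPR2) and the fibroblast gene *Snai2* passed the CPM minimum only through RPR2. The intervals of *Satb1* and *Snai2* reached 0. The part of these lymphocyte, neutrophil and fibroblast genes in the levels of the secretory genes was not tested. Also lower were *Prg2* (1962 and 131 CPM, counted only through RPR2), *Ptprc* (1427 and 479 CPM) and the fibroblast gene *Pi16* (5886 and 496 CPM, −3.57, −3.94 to −3.20).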

How the data were processed

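Lung sections of 1 RPR2 and 1 CRPR2 mouse were measured by Xenium In Situ from a shared block and slide. The authors deposited, for each section, whole-number counts of transcripts per gene and segmented cell (segmentation by expansion of nuclei), without normalization. The submitters' processing notes name Seurat 4.4.0 for the series. The genome build of the panel was not given in the sources used here, and gene positions come from GENCODE on GRCm38. Cell positions, author clusters and the study's repeat samples were not used here.

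The rule was applied to raw counts, which left out 1903 RPR2 and 2236 CRPR2 cells with fewer than 20 transcripts. No doublet caller was run. Transcripts were summed over cells of a kind and given as CPM. Control probes averaged 2.40 and 2.36 CPM in selected cells. Shares have Clopper-Pearson intervals, sums Poisson intervals and ratios exact conditional intervals. A gene was called at 2-fold or more, with at least 200 CPM on 1 side, without a test. Shares of cells with a given transcript were taken at 50 transcripts per cell, drawn at random. Comparison gates were at least 6 ciliated transcripts, 4 AT2 transcripts, 2 NE transcripts or, with the others low, 5 endothelial transcripts.

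The members and gene lists were chosen with earlier results of these data known. Named genes are those of the mucin, trefoil and goblet, club, epithelial and macrophage lists, the 10 genes most apart each way between kinds of cell and the 8 most apart each way between sections. Genes outside this rule were chosen after their values were seen. Some genes that the rule names are not reported here. The ratio script was checked on simulated data. Alternatives varied the transcript minimum (50), the minimum of *Reg3g* and *Retnla* (3 or 8), the limits (1, 1 and 0), immune transcripts, the lead margin, depth, the CPM total and the CPM minimum (100). The split of *Retnla*-led cells and its alternatives, the set without *Krt5* and the denominator without NE cells were added after seeing the data. Computation used scipy 1.17.1, numpy 2.4.6, pandas 2.3.3, matplotlib 3.10.9 and Python 3.11.15.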

Additional observations from a re-analysis of the deposited data

Results flagged for a closer look

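Kinds of cell that the same rule selected differed between the sections in opposite directions. The share of *Reg3g*-led cells had a log2 ratio of CRPR2 over RPR2 of −1.23, and that of *Retnla*-led cells 0.48. Within the *Retnla*-led cells, the share of all cells that were epithelial-led had a log2 ratio of 2.40 and the share that were macrophage-led −1.32. Over cells outside the NE gate, the log2 ratios were −0.08 for *Reg3g*-led cells, 1.62 for *Retnla*-led cells, 3.55 for epithelial-led cells and −0.17 for macrophage-led cells. These differences between ratios were not tested, as each genotype had 1 section.

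A few genes were at least 2-fold higher in CRPR2 in *Reg3g*-led cells and at least 2-fold lower in epithelial-led *Retnla*-led cells, or the reverse, which was not tested either. The eosinophil gene *Prg2* had log2 ratios of 2.70 in *Reg3g*-led cells and −3.90 in epithelial-led cells. The stromal genes *Ccdc80* (1.03 and −1.96) and *Sfrp1* (1.11 and −1.83) and the stress gene *Ndrg1* (1.57 and −1.29) had the same pattern. The interferon-induced gene *Rsad2* (−1.68 and 2.79) and *Rasd1*, a small GTPase gene (−1.47 and 1.27), had the opposite one. The *Rsad2* ratio in epithelial-led cells rests on 2 transcripts in RPR2 and turned to −1.13 with at least 8 transcripts of *Reg3g* and *Retnla*, and the *Prg2* ratio in *Reg3g*-led cells rests on 5 transcripts in RPR2. *Ccdc80* in *Reg3g*-led cells had 15 transcripts in RPR2 and passed the CPM minimum only through CRPR2. In epithelial-led cells, *Prg2* passed that minimum only through RPR2 and *Rsad2* only through CRPR2. These genes were listed by this pattern after their values were seen.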

How the results depend on the processing

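With 1 section per genotype, direction and 2-fold calls were followed in place of a test. Of 44 recomputed values under other settings, 29 left the value within its interval or within 1.5 times the count, and of 16 under settings added after seeing the data 10 did. The log2 ratio of the share of selected cells was −0.50 at 8 or more *Reg3g* and *Retnla* transcripts, −0.45 with limits of 1, 1 and 0 and −0.45 with cells thinned to 50 transcripts. It reversed to 0.13 without cells of at least 2 immune transcripts and to 0.93 over cells outside the NE gate. The *Reg3g*-led percentage of selected cells in RPR2 and CRPR2 was 51.5 and 30.8 at 8 or more transcripts, 32.02 and 24.9 with the stricter limits, 85.1 and 32.7 without immune transcripts, 64.6 and 33.9 after thinning, and 25.6 in CRPR2 at 3 or more. It was higher in RPR2 under each of the alternatives run. The epithelial-led percentage of *Retnla*-led cells was 3.92 and 64.9 at 8 or more transcripts and 10.4 and 54.1 with the stricter limits, and 78.0 in CRPR2 with the club list. Without immune transcripts, 40 genes in place of 100 were 2-fold apart between *Reg3g*-led and *Retnla*-led cells, and 120 in place of 185 between the sections in *Retnla*-led cells. The cause of these shifts was not tested.

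Of 416 recomputed values for named genes, 307 stayed the same by that measure, 106 moved and 3 reversed. Under the added settings, 63 of 80 stayed the same, 11 moved and 6 reversed. *Atp6v0d2* in *Reg3g*-led cells went to −0.086 at 8 or more transcripts and to −0.064 without immune transcripts, and *Ifitm6* to 0.00 between kinds of cell without immune transcripts. At 8 or more transcripts, the log2 ratio between sections went to −1.50 for *Ptprn2*, −0.52 for *E2f1*, −3.43 for *Scg3*, −1.13 for *Rsad2* and −1.75 for *S100b* in epithelial-led cells and to 0.18 for *Cxcr2* in macrophage-led cells. The epithelial-led values rest on very few RPR2 transcripts, as 13 of those cells held 8 to 14 *Retnla* transcripts. No paired analysis was possible because each group had 1 section. Leaving out a section leaves no comparison. Epithelial-led RPR2 cells, with 22427 transcripts in all, limit every ratio that uses them.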
